A study of Homo sapiens with 4 samples.

Results

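ATP-binding cassette (ABC) transporters were examined in SW480 cells, an established colorectal adenocarcinoma line, after transduction labelled as changing HOXA5, a homeobox transcription factor. Members were the probe sets of the array whose annotation gave 1 gene symbol made of ABC, a subfamily letter from A to G and a number, without pseudogenes. They were 92 of 41091 probe sets with a single symbol and stood for 41 of 19775 genes. The groups were 2 arrays of SW480 cells with HOXA5 knock-down (KD) and 2 arrays of SW480 cells with HOXA5 overexpression (OE). Cells for all 4 arrays were grown in Dulbecco's modified Eagle's medium with 10% fetal bovine serum, per the labels, and no array of untransduced or vector-treated cells was analysed here. Each difference below is OE minus KD and cannot be assigned to either manipulation alone. The labels name neither the vector nor the knock-down construct, and they do not say whether a group was 1 transduced population or several, or whether its replicates were separate cultures, so a p-value covers only the scatter among these arrays, and that scatter may be technical.

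ABC proteins bind and hydrolyse ATP in a pair of conserved nucleotide-binding domains, and most of them use it to carry lipids, peptides, conjugates, drugs or ions across a membrane. Some transporters hold all domains in 1 chain, others are built from shorter chains that pair up, and the E and F subfamilies have no membrane-spanning domain and act on ribosomes. In colorectal epithelium and its tumours the family is best known for multidrug efflux by ABCB1, ABCC-type pumps and ABCG2, and for sterol export by ABCA1 and by members of the G subfamily.

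The promoters of the called genes are shown first, because ABCB1, ABCA1 and ABCC4 were all higher in the OE arrays; a gene is said to be called where its limma adjusted p over all 19775 genes was under 0.05. Each line is the 250 bases before the annotated start of the gene, 5′ to 3′ on the minus strand, from RefSeq on GRCh38.p14, and capitals mark matches to a motif. RefSeq's table held a promoter for 33 of the 41 genes and none for ABCB4, the other called gene.
ABCB1, chr7:87713296-87713545: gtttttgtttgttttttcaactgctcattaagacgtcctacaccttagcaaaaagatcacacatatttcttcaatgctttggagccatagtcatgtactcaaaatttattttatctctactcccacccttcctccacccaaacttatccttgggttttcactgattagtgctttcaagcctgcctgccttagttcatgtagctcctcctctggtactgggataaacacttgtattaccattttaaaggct
ABCA1, chr9:104928156-104928405: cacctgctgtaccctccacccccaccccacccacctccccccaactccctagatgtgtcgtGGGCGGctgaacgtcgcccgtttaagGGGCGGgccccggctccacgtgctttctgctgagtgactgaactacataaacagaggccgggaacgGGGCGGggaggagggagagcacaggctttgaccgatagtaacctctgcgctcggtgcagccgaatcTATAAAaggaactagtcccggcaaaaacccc
ABCC4, chr13:95301452-95301701: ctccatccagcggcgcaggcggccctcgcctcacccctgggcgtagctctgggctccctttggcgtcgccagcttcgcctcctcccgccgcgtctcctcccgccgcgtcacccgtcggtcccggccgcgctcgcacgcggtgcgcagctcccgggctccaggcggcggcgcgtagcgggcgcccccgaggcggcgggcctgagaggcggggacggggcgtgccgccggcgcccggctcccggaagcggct

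Both strands were searched for short motifs. The TCF/LEF motif, bound by the transcription factors of the Wnt pathway, was searched as CTTTGAT and as the variant CTTTGTT. The GC box was searched as GGGCGG, the TATA box as TATAAA and the CCAAT box by the letters of its name. No match in the windows shown overlapped another. The ABCA1 window held 3 GC boxes, starting at -189, -163 and -97 from the start site, and a TATA box at -31. The windows of ABCB1 and ABCC4 held none of these letters. The base composition of the 3 windows differed widely, with 39.2% G and C for ABCB1, 61.6% for ABCA1 and 80.4% for ABCC4. Over the 33 promoters of ABC genes, none held CTTTGAT, against 2.3% of all 35116 promoters in the table. The variant CTTTGTT was in 3 (9.1%, against 4.5%). GC boxes were present in 18 (54.5%, against 42.6%), CCAAT boxes in 6 (18.2%, against 32.0%) and TATA boxes in 4 (12.1%, against 10.7%). These matches describe the letters of the windows only. The shares over all promoters count every promoter listed, whereas a single promoter was kept per ABC gene, so the sets compared are not alike. Whether transcription in these cells begins at the annotated starts or elsewhere in the genes was not tested, so other promoters may hold motifs that these windows lack.

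Values are log2 expression made with RMA, a method without detection calls: dim probe sets could not be told from background, and folds that start from a dim value depend on where the scale ends. A value is that of the brightest probe set of a gene unless said otherwise. Array medians lay between 5.77 and 5.81, and arrays correlated at 0.997 within groups and at 0.991 to 0.993 between groups. No probe set used here was named HOXA5, so the manipulated gene is not reported. The labelled epithelial origin was checked with 8 markers, whose mean log2 value was 7.37 and 7.30 on the KD arrays and 8.09 and 8.08 on the OE arrays. The keratins KRT8 and KRT18 averaged 13.02 and 13.86 in the KD arrays and 12.91 and 13.82 in the OE arrays. The adhesion gene EPCAM rose from 3.73 to 8.78, and the homeobox gene CDX2 from 5.99 to 6.50. The other 6 did not pass. Of these, CDH1 was at 5.08 and 4.91 on the KD arrays and at 5.44 and 5.74 on the OE arrays. VIL1, CDH17 and LGALS4 averaged 6.47, 4.74 and 5.87 in the KD arrays and 6.49, 4.81 and 5.78 in the OE arrays. By mean over the 4 arrays, only the 2 keratins lay above the median of all genes (6.80). The median of the 8 was 6.25, beside 6.60 for the markers of other cell types given below. In the KD arrays, the check of the labelled origin thus rests on the keratins. The change in the mean of the 8 follows EPCAM, which had the largest difference (5.045). Their median difference was 0.05, with 5 above 0 and 3 below. Of 7 markers of fibroblasts, leukocytes and endothelium, none passed in limma (1 at an unadjusted p under 0.05), and COL1A1 was bright in both groups (9.37 and 9.52). Their mean was 6.27 and 6.34 on the KD arrays and 6.31 and 6.19 on the OE arrays. What part the differences of the epithelial markers, the largest that of EPCAM, had in the results on ABC genes was not tested.

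Of the 41 ABC genes, 4 were called higher in the OE arrays: ABCB1, ABCB4, ABCA1 and ABCC4. Over all 19775 genes, 4.77% were called in either direction, 2.74% higher and 2.03% lower, beside 9.76% of ABC genes higher. No ABC gene was called lower in limma, while 4 had an unadjusted p under 0.05 in that direction. In either direction, 12 ABC genes (29.3%) had an unadjusted p under 0.05, beside 18.6% of all genes. The arrays of the groups did not overlap for 23 ABC genes (56.1%), 12 higher and 11 lower in the OE arrays, beside 46.9% of all genes. The median difference of the 41 genes was -0.03, close to that of all genes (-0.02), and their median absolute difference was 0.16, beside 0.09 over all genes. ABCB1 was the single ABC gene that differed by at least 1 on the log2 scale.

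**Figure D1:**
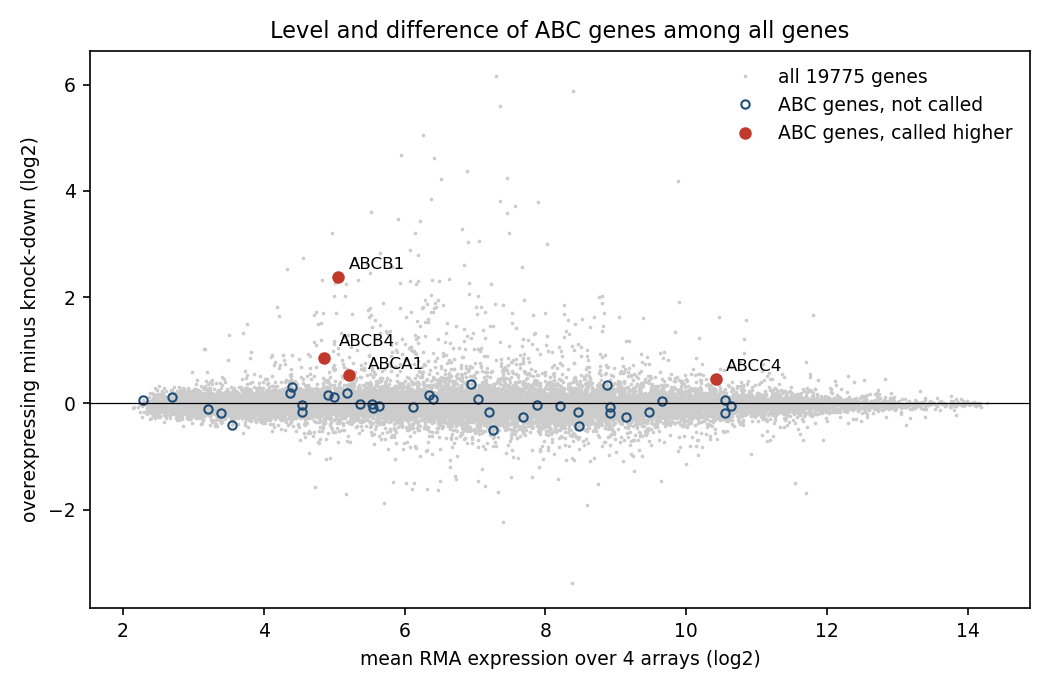
Difference between OE and KD arrays (log2, vertical axis) against mean RMA expression over the 4 arrays (log2, horizontal axis) for all 19775 genes (grey) and the 41 ABC genes (open blue, not called; red, called). ABCB1 stands at 2.38, apart from the other ABC genes, which lie between -0.49 and 0.85.

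Exporters of drugs, conjugates and bile salts were 12 of the measured members, of which ABCB1 and ABCC4 rose, none fell and 10 did not pass. In limma, 5 of the 12 had an unadjusted p under 0.05, all of these higher. Among all genes, 2.74% were called higher and 18.6% had an unadjusted p under 0.05 in either direction. ABCB1 encodes P-glycoprotein, the archetypal multidrug efflux pump of the apical membrane. It was at 3.84 and 3.89 on the KD arrays and at 6.06 and 6.44 on the OE arrays. Both OE values lay more than 2 log2 units above both KD values. The rise was 5.22-fold, or 2.38 ± 0.13 on the log2 scale (SE, n = 2 per group), with a limma adjusted p of 0.000368. In RNA from bulk cells, more transcript in every cell and more cells with the transcript cannot be told apart. Among all genes its KD mean lay at percentile 11.0 and its OE mean at percentile 41.6. The second ABCB1 probe set, 243951_at, was at 4.06 and 4.08 on the KD arrays and at 4.64 and 4.44 on the OE arrays. It differed in the same direction by 0.47, but missed the threshold over all probe sets (limma adjusted p = 0.077). With its probe sets averaged, the difference of ABCB1 was 1.43 (limma adjusted p = 0.000131). With each of the 4 arrays left out in turn, the differences were 2.20 to 2.57 and the limma adjusted p-values 0.0078 to 0.023. In each of those fits 1 group is a single array, which is assumed to vary like the 2 arrays of the other group.

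ABCC4, which exports cyclic nucleotides, prostaglandins and organic anion conjugates, was at 10.14 and 10.24 on the KD arrays and at 10.67 and 10.63 on the OE arrays. The groups did not overlap. The rise was 1.38-fold (0.46 ± 0.08, SE, n = 2 per group, limma adjusted p = 0.029). All 4 of its probe sets were higher in the OE arrays, by 0.18, 0.46, 0.69 and 0.80, and on each of them both OE values lay above both KD values. In the fit over all 41091 probe sets, 1554918_a_at passed (0.80, limma adjusted p = 0.026), at 8.74 and 8.83 on the KD arrays and 9.44 and 9.72 on the OE arrays. The brightest, 203196_at, did not pass in that fit (limma adjusted p = 0.052). The call on ABCC4 was lost whichever array was left out (limma adjusted p of 0.16 to 0.22, with differences of 0.41 to 0.51).

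The other exporters named here did not pass. ABCG2, the exporter also known as breast cancer resistance protein and linked to the side population of stem-like cells, was at 8.67 and 8.73 on the KD arrays and at 8.98 and 9.13 on the OE arrays (0.36 ± 0.09, SE, limma adjusted p = 0.087). The groups of ABCG2 did not overlap, which held for 46.9% of all genes. The 95% confidence interval of its difference ran from 0.14 to 0.57. Like the other intervals given here, it is not adjusted for the number of genes tested. ABCC3, a basolateral exporter of glucuronides and bile salts, was at 6.89 and 6.61 on the KD arrays and at 7.12 on both OE arrays (0.37, limma adjusted p = 0.13). All 5 of its probe sets were higher in the OE arrays, by 0.11 to 0.78. One of them, 208161_s_at, passed over all probe sets, from 5.92 and 6.01 to 6.71 and 6.78 (limma adjusted p = 0.0092). With its probe sets averaged, ABCC3 passed at 0.36 (limma adjusted p = 0.037).

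ABCC2, the apical exporter of glucuronide and glutathione conjugates, differed by 0.15 (95% confidence interval -0.06 to 0.37), from 6.35 and 6.19 to 6.47 and 6.38. ABCB5, reported elsewhere as a marker of stem-like tumour cells, overlapped between the groups, at 6.28 and 6.43 against 6.50 and 6.38. Its difference was 0.09 (95% confidence interval -0.13 to 0.31), and the other 3 of its probe sets differed by -0.22 to -0.01. ABCC1, the broadly expressed exporter of glutathione conjugates, stood at 9.54 and 9.57 on the KD arrays and at 9.30 and 9.47 on the OE arrays. Its difference was -0.17 (95% confidence interval -0.38 to 0.04). Over the 12 exporters, 8 differences were above 0 and 4 below, with a median of 0.16, beside 8614 of all 19775 genes above 0.

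**Figure D2:**
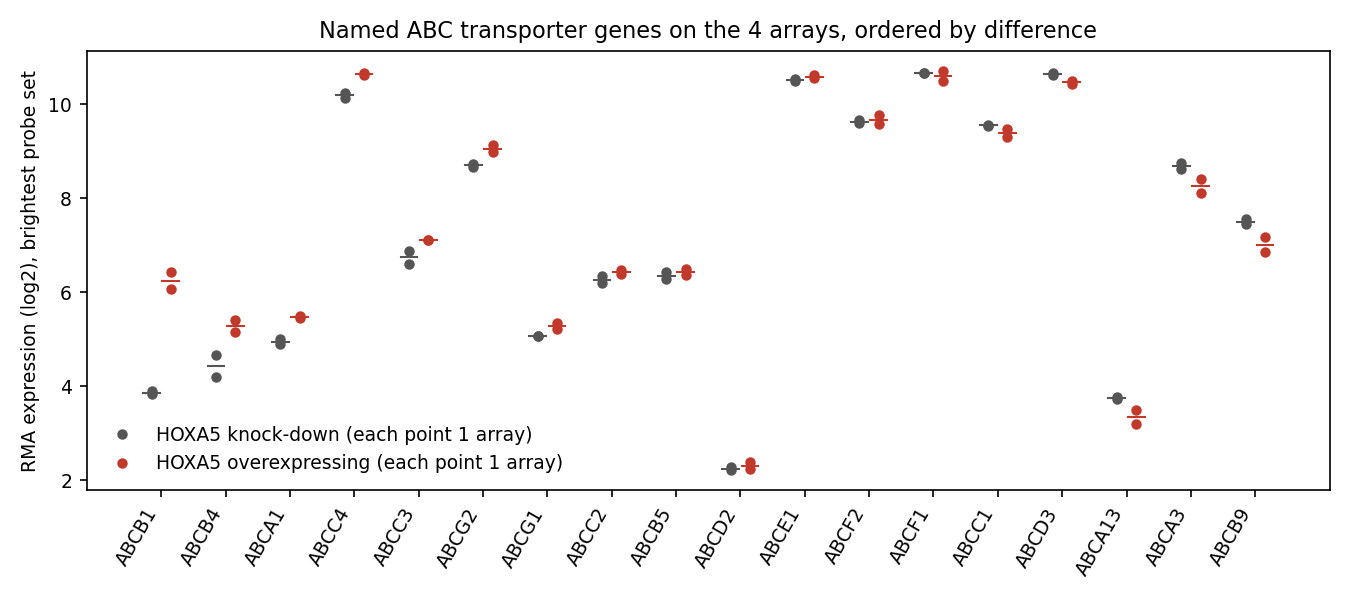
RMA expression (log2) of the 18 named ABC genes on each of the 4 arrays, by brightest probe set, ordered by the difference; points are arrays and short lines are group means. ABCB1 shows the widest gap, 3.84 and 3.89 against 6.06 and 6.44, and the group means of every other gene shown lie less than 1 apart.

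Transporters of sterols and phospholipids gave the remaining calls, ABCB4 and ABCA1, among 7 measured genes. None fell and 5 did not pass (3 of the 7 at an unadjusted p under 0.05 in limma). The shares over all genes were 2.74% called higher and 18.6% at an unadjusted p under 0.05. ABCB4 encodes the phosphatidylcholine translocator of bile and is a close paralogue of ABCB1. It was at 4.66 and 4.20 on the KD arrays and at 5.15 and 5.42 on the OE arrays. The groups did not overlap, and the KD arrays lay 0.46 apart. The rise was 1.81-fold (0.85 ± 0.17, SE, n = 2 per group, limma adjusted p = 0.047). Its other probe set, 1570505_at, differed by 0.03, and over all probe sets neither passed (limma adjusted p = 0.072 for the brighter, 207819_s_at). With the probe sets averaged, ABCB4 passed with a smaller difference, 0.44 (limma adjusted p = 0.044). The call was lost whichever array was left out (limma adjusted p of 0.079 to 0.27, with differences of 0.62 to 1.08). A further probe set annotated to both ABCB4 and ABCB1, 209994_s_at, was left out by the choice of members; it read 4.21 and 4.99 on the KD arrays and 5.81 and 6.11 on the OE arrays. How far probes for ABCB4 also bound ABCB1 transcripts was not tested.

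ABCB4 and ABCB1 are next to each other on chromosome 7 in the RefSeq assembly. The 7 measured protein-coding genes around them did not pass, with differences from -0.15 (ADAM22) to 0.22 (TMEM243). TMEM243 had an unadjusted p of 0.021 in limma, at 9.83 on both KD arrays and at 10.03 and 10.07 on the OE arrays. TMEM243, CROT and DBF4 were higher, and RUNDC3B and ADAM22 lower, on both OE arrays than on both KD arrays. CROT, a carnitine acyltransferase gene on the side of ABCB4, was at 5.95 and 6.03 on the KD arrays and at 6.15 and 6.13 on the OE arrays (limma adjusted p = 0.37). RUNDC3B, on the side of ABCB1, was at 3.09 and 3.10 and at 3.03 and 2.93 (limma adjusted p = 0.54). Other measured members that are neighbours of each other did not pass on either side: ABCC12 and ABCC11 differed by 0.32 and 0.16, ABCG5 and ABCG8 by -0.04 and -0.04, and the row of ABCA8, ABCA9 and ABCA6 by -0.17, -0.11 and -0.18.

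**Figure D3:**
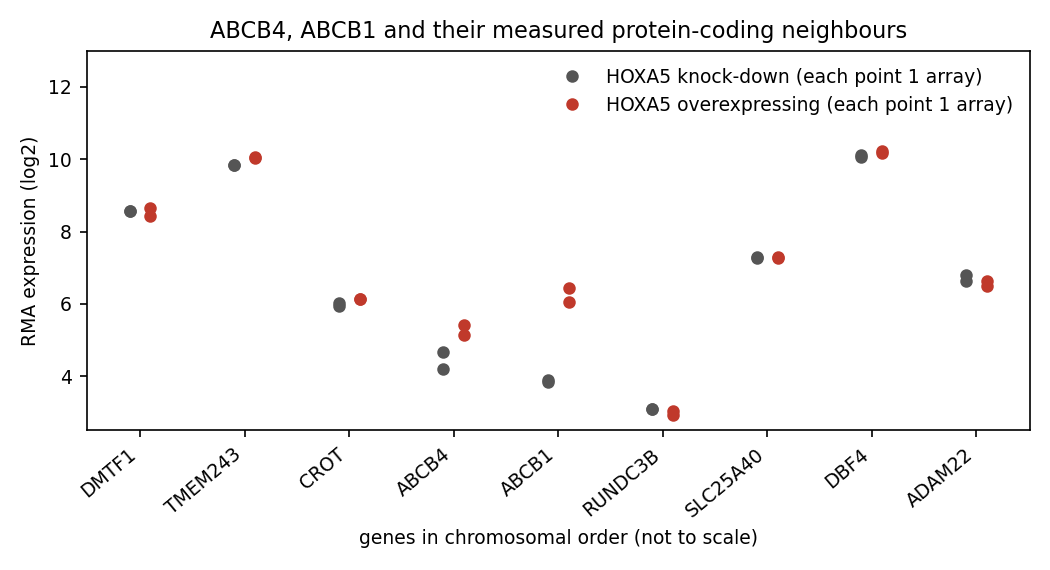
RMA expression (log2) of ABCB4, ABCB1 and the 7 measured protein-coding genes around them, in chromosomal order and not to scale; each point is 1 array (grey KD, red OE). The groups separate by 2.38 at ABCB1 and 0.85 at ABCB4, and differ by at most 0.22 at the others.

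ABCA1 moves cholesterol and phospholipid to apolipoprotein A-I and is a classical target of the liver X receptors. It was at 5.01 and 4.89 on the KD arrays and at 5.51 and 5.45 on the OE arrays. The groups did not overlap, and the rise was 1.44-fold (0.53 ± 0.08, SE, n = 2 per group, limma adjusted p = 0.020). Of its 4 probe sets, 203505_at (0.53) and 203504_s_at (0.60) passed over all probe sets, 216066_at differed by 0.03 and 1570279_at by -0.24. The call on ABCA1 was lost whichever array was left out (limma adjusted p of 0.12 to 0.19, with differences of 0.47 to 0.59) and with the mean of its probe sets (0.23, limma adjusted p = 0.15).

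ABCG1 carries cholesterol to high-density lipoprotein. Its brightest probe set, 211113_s_at, was at 5.07 and 5.08 on the KD arrays and at 5.34 and 5.21 on the OE arrays, and did not pass (0.20, limma adjusted p = 0.26). A dimmer probe set, 204567_s_at, was at 3.73 and 3.62 on the KD arrays and at 5.29 and 5.63 on the OE arrays. That is a difference of 1.79 ± 0.13 (SE, n = 2 per group), or 3.45-fold, with a limma adjusted p of 0.0020 over all probe sets. The remaining probe sets of ABCG1 differed by 0.17 and by less than 0.01. With the probe sets averaged, ABCG1 passed at 0.54 (limma adjusted p = 0.014). Whether the probe sets read different transcripts of the gene was not tested. ABCA7, ABCG4, ABCG5 and ABCG8 differed by -0.18, -0.09, -0.04 and -0.04.

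Over the 28 ABC genes with more than 1 probe set, all probe sets of a gene were above 0 for 8, all below 0 for 11, and on both sides for 9. The 8 include ABCG1, although its probe set 230913_at had the same mean in both groups (3.98). In the fit over all probe sets, 6 of the 92 (6.52%) passed higher and none lower, beside 1.91% higher, 0.925% lower and 2.83% in either direction among all 41091. Of these 6, 4 were not the brightest of their gene, and they belonged to ABCA1, ABCB1, ABCC3, ABCC4 and ABCG1. Thus ABCG1 and ABCC3 had a called probe set without a called gene, and ABCB4 the reverse.

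**Figure D4:**
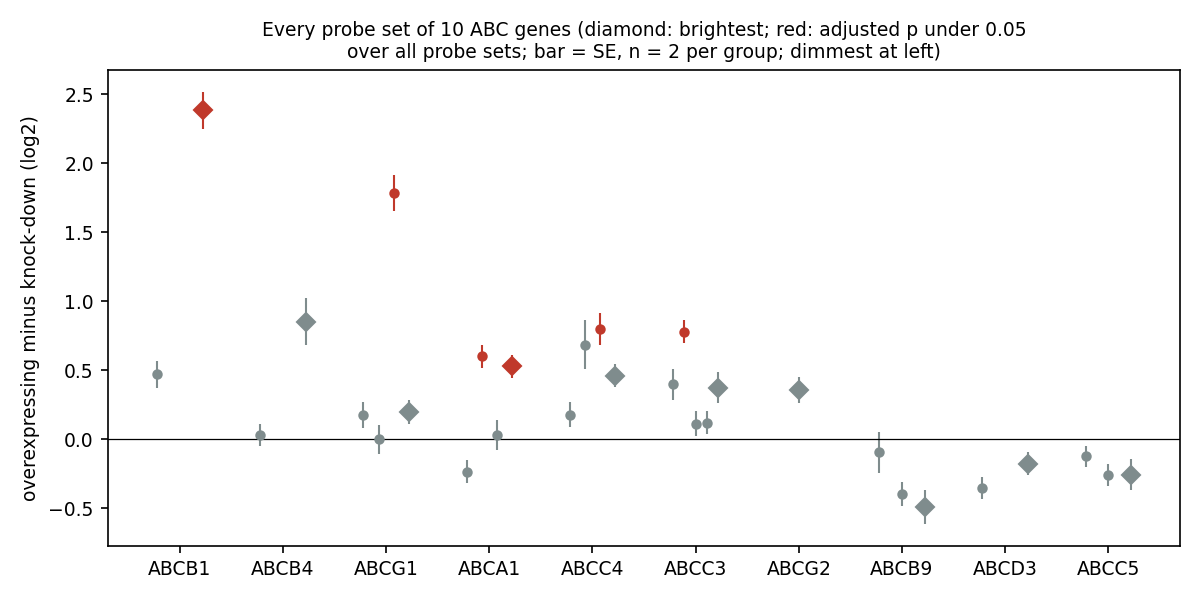
Difference between OE and KD arrays (log2) for every probe set of 10 ABC genes, picked after their values were seen, with the dimmest probe set of a gene at left; diamonds are the brightest, red marks a limma adjusted p under 0.05 over all probe sets, and bars are SE (n = 2 per group). Probe sets of ABCB1 and ABCG1 span 0.47 to 2.38 and 0.00 to 1.79, and those of ABCC3 and ABCC4 span 0.11 to 0.78 and 0.18 to 0.80. No probe set of these genes lies below 0.

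The other A subfamily genes carry lipids in particular tissues. None of the 9 passed in limma (3 at an unadjusted p under 0.05, beside 18.6% of all genes). Of the 9, 7 were below 0, with a median of -0.17, beside 11159 of all 19775 genes below 0. ABCA3, the phospholipid transporter of lung surfactant, was at 8.62 and 8.74 on the KD arrays and at 8.12 and 8.41 on the OE arrays. Its groups did not overlap, and its difference was -0.42 ± 0.12 (SE, limma adjusted p = 0.12). ABCA13 was at 3.73 and 3.78 and at 3.20 and 3.49, a difference of -0.41 (limma adjusted p = 0.11), and its other probe sets differed by -0.17 and -0.25. ABCA2, a transporter of late endosomes and lysosomes, differed by -0.26, whereas its other probe sets differed by 0.07 and -0.02.

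Transporters of mitochondria and lysosomes numbered 4, and none passed (1 at an unadjusted p under 0.05 in limma). ABCB9, a lysosomal peptide transporter related to the TAP proteins, was at 7.45 and 7.56 on the KD arrays and at 6.86 and 7.17 on the OE arrays. It had the most negative difference of the ABC genes, -0.49 ± 0.12 (SE, limma adjusted p = 0.084), with a 95% confidence interval of -0.78 to -0.20. Its other probe sets differed by -0.39 and -0.09. ABCB6, a porphyrin transporter, and the mitochondrial transporters ABCB10 and ABCB8 differed by -0.16, -0.05 and 0.09.

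None of 3 D subfamily genes passed in limma (0 at an unadjusted p under 0.05). ABCD3, an abundant transporter of the peroxisomal membrane, was at 10.63 and 10.66 on the KD arrays and at 10.50 and 10.43 on the OE arrays (-0.18, 95% confidence interval -0.36 to 0.01). Its other probe set differed by -0.36 (limma adjusted p = 0.091). ABCD2 read the lowest of the ABC genes, 2.21 and 2.28 against 2.24 and 2.39. The sulphonylurea receptors ABCC8 and ABCC9, which are subunits of ATP-sensitive potassium channels, differed by -0.07 and 0.20, and neither passed in limma (0 of 2 at an unadjusted p under 0.05).

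By brightest probe sets, the 4 genes of the soluble E and F subfamilies had the smallest median absolute difference of the 7 groups by role, 0.057. The D subfamily was close, at 0.067. ABCE1, which splits ribosomes after termination, was at 10.54 and 10.50 on the KD arrays and at 10.62 and 10.55 on the OE arrays. ABCF1, which acts in translation initiation, was at 10.66 on both KD arrays and at 10.50 and 10.71 on the OE arrays, and ABCF2 at 9.66 and 9.59 against 9.57 and 9.78. All 4 differences lay between -0.07 and 0.06, and none passed in limma (0 at an unadjusted p under 0.05). Other probe sets ranged wider: 201873_s_at of ABCE1 differed by -0.13, and the 5 probe sets of ABCF2 by -0.13 to 0.18.

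**Figure D5:**
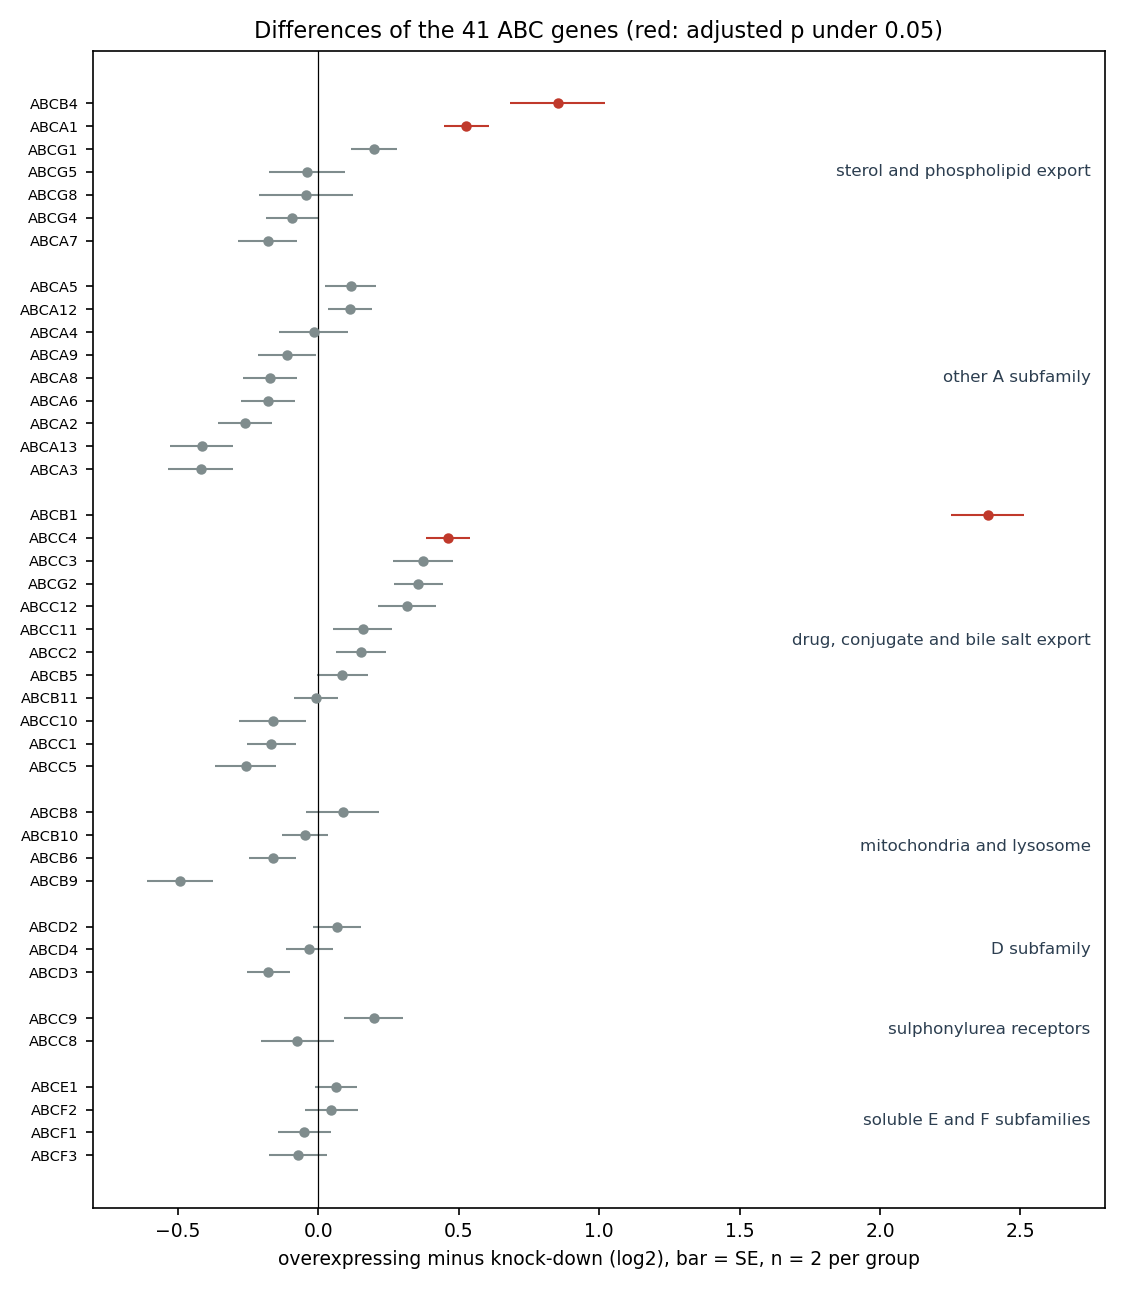
Difference between OE and KD arrays (log2) with its SE (n = 2 per group) for the 41 ABC genes, in 7 groups by role; red marks a limma adjusted p under 0.05. The red points are ABCB1, ABCB4, ABCA1 and ABCC4, the soluble E and F genes lie between -0.07 and 0.06, and 7 of 9 other A subfamily genes lie below 0, beside 11159 of all 19775 genes.

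Genes that work with ABC transporters were compared next. TAP1, TAP2 and CFTR are family members under other names: TAP1 and TAP2 pump peptides into the endoplasmic reticulum for antigen presentation, and CFTR is a chloride channel. None of the 3 passed in limma (1 at an unadjusted p under 0.05). TAP2 went from 8.59 to 8.23 (-0.36, limma adjusted p = 0.0504), TAP1 from 8.52 to 8.34 (-0.18) and CFTR from 4.37 to 4.35 (-0.01). Of 14 listed transcriptional regulators of ABC genes, the array table gave 10. Of these, 2 rose and no other passed (2 at an unadjusted p under 0.05 in limma), beside 2.74% of all genes called higher. How these 2 calls change under the alternatives described below was not examined. VDR, the vitamin D receptor, rose by 0.92 ± 0.08 (SE, limma adjusted p = 0.0020) and AHR, the dioxin receptor, by 0.38 (limma adjusted p = 0.045). NR1H3, which encodes a liver X receptor, differed by -0.14, its partner RXRA by -0.16 and the oxidative stress factor NFE2L2 by -0.06.

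Of 13 partners and acceptors, NHERF1, a PDZ scaffold that binds CFTR and other apical transporters, fell by 0.88 (limma adjusted p = 0.0073), from 9.77 to 8.89, and none rose. Among all genes, 2.03% were called lower. An unadjusted p under 0.05 in limma was found for 4 of the 13, beside 18.6% of all genes. APOA1 and APOE, which accept lipid exported by ABCA1, differed by -0.17 and 0.06. Of 7 other liver X receptor target genes, 6 were measured here and none passed in limma (1 at an unadjusted p under 0.05), with differences of -0.16 (MYLIP) to 0.36 (SMPDL3A). ABCG1, described above, is a further target of these receptors.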

How the data were processed

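The deposited values were log2 expression per probe set. Per the submitters' processing notes, the authors used RMA and affy, with versions not given in the sources used here. This method corrects background, makes array distributions alike and summarises probe sets, so a shift shared by all genes would be removed. They were used as deposited. Of 54675 probe sets, 62 controls, 1801 with several symbols and 11721 not listed with a gene were left out; the symbols of 41037 of the remaining 41091 probe sets matched RefSeq by gene identifier. For each of 19775 genes the probe set brightest on average over all arrays was used; 10523 genes had more than 1.

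OE was compared with KD in limma 3.58.1 (R 4.3.3), lmFit and eBayes with default settings, two-sided, Benjamini-Hochberg over all genes (or all probe sets), threshold 0.05, with no filter on dim genes. The fit had 2 residual degrees of freedom and a prior worth 4.17. An exact permutation test of 2 against 2 arrays cannot go below 0.333. The procedure was tested on simulated data. The number of arrays limits the precision.

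Members, lists and motifs were chosen with earlier results of these data known. Named genes were every called member; ABCA1, ABCB1, ABCB5, ABCC1, ABCC2, ABCC3, ABCG1 and ABCG2; among members not called the 5 brightest, the 5 with the largest absolute difference and the dimmest; called members of the partner lists; and TAP1, TAP2 and CFTR. Others were named after their values were seen, to complete a count. The alternatives changed the moderation (intensity trend, robust), the pairing (replicate block), the scaling (centring, another quantile step), the genes kept (those above the median level), the use of probe sets (their mean, or each by itself), the threshold (0.01, 0.10) and the arrays (each left out in turn).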

Additional observations from a re-analysis of the deposited data

How the results depend on the processing

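ABCB1 kept its direction and its call under all 12 alternatives that could be applied to it, with a difference of 1.43 in place of 2.38 when its probe sets were averaged, and that of ABCB4 fell from 0.85 to 0.44. ABCA1, ABCB4 and ABCC4 kept their direction under every alternative but each missed the threshold in 7 of them. Of the 4 genes called higher, 1 was left with the replicate block and 1 at an adjusted p of 0.01; leaving out any 1 array left 1 as well. No gene was called lower, against 2 (ABCA3 and ABCB9) with an intensity trend and robust moderation, 2 (the same genes) among genes above the median level, and 1 (ABCB9) at an adjusted p of 0.10. The filter at the median level took ABCB1, ABCB4 and ABCA1 out of the test, and the 3 genes higher there were ABCC4, ABCG2 and ABCC3. ABCG2 passed in 4 alternatives, the trend, the second quantile normalization, the filter and the looser threshold. The median difference of -0.0317 became -0.0717 among genes above the median level and ran from -0.00898 to 0.0241 with an array left out. Over all genes, 944 were called, against 1822 with the trend, 520 with the replicate block, 377 and 1561 at 0.01 and 0.10, and 172 to 237 with an array left out. With the replicate block, ABCA1 (limma adjusted p = 0.051), ABCC4 (0.076) and ABCB4 (0.13) did not pass. The replicate numbers come from the titles, which do not say that they pair cultures, and the deviations of same-numbered arrays correlated at 0.146. Apart from the filter, the thresholds and the smaller number of arrays, which act by construction, the cause was not tested.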

Other observations

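Probe sets left out by the choice of members gave these values. ABCA17P, a pseudogene, was at 8.79 and 8.69 on the KD arrays and at 7.94 and 8.13 on the OE arrays. ABCA11P was at 5.41 and 5.33 and at 5.41 and 5.50, and ABCC6P1 at 3.40 and 3.46 and at 3.71 and 3.45. The 4 probe sets of ABCC13 differed by -0.18 to 0.15. A probe set annotated to both ABCB8 and ASIC3 read 5.10 and 5.11 on the KD arrays and 4.98 and 5.08 on the OE arrays.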
